A study of Mus musculus with 6 samples.

Results

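The genes described here are 48 mouse genes of DNA replication and mitosis, of 47729 genes in the count table. They were taken by symbol from a list whose rule uses no counts but which was drawn up with earlier results of these data known, and all 48 were present and expressed above the filter on low counts. Of these, 25 act in late G1 and S phase (cyclin E, origin licensing, replication fork and nucleotide synthesis genes) and 23 act in G2 and mitosis (Mki67, Top2a, cyclins A2 and B, spindle, checkpoint and centromere genes). RNA-seq of whole spleen was compared between NOD.B10 females (NOD.B10Sn-H2b/J), a model of primary Sjögren's syndrome (pSS) with clinical disease, and healthy females of the control strain, BL/10 (C57BL/10). There were 3 libraries of each strain, described as biological replicates. No treatment, transgene or deletion distinguished or was shared by these 2 groups, which differ in strain alone by design. The NOD.B10 strain carries the C57BL/10 H2b haplotype on a NOD background, so that the strains differ at many loci at once. The total read count was 16476126, 16257041 and 17160323 in NOD.B10 replicates 1, 2 and 3, and 18298451, 15662712 and 17935130 in BL/10 replicates 1, 2 and 3.

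Several properties of these libraries bear on every value below. The sample titles and strain fields name the opposite strain to the descriptions and the columns of the count table for all 6 libraries. The column names were used here, and with the titles each difference would change its sign. The labels give an age of 26 weeks for the 3 NOD.B10 libraries and for BL/10 replicate 1, and 36 weeks for BL/10 replicates 2 and 3, whereas the study describes age-matched mice. Those ages stand in the same records as the opposite strain names, so the labels alone do not settle which mice were older. BL/10 replicate 1 and, to a lesser extent, BL/10 replicates 2 and 3 also held RNA of the pancreas, an organ adjoining the spleen. Markers of the pancreas acinar cell, which secretes digestive enzymes, took 1.42% of the counts of replicate 1, against 0.201% and 0.0110% in replicates 2 and 3. In the NOD.B10 libraries the same 14 genes took between 0.00233% and 0.00318% of the counts. Markers of splenic B cells, T cells and erythroid cells were detected in all 6 libraries.

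Cells that divide copy their DNA once in S phase and separate the copies in mitosis. Replication origins are licensed when the origin recognition complex, Cdc6 and Cdt1 load the Mcm2 to Mcm7 helicase, and they fire when Cdc45 and the GINS complex join it. Transcription of the S phase genes is driven mainly by E2F factors as cells pass from G1 to S, and that of the mitotic genes later, through elements called CHR and CCAAT boxes that are bound by the MuvB complex with B-Myb and FoxM1 and by NF-Y. The adult mouse spleen, unlike that of humans, keeps red cell formation beside the expansion of B cells in germinal centers, and both cell populations divide rapidly.

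These regulatory sequences differed in share between the S phase and the mitotic promoters, and none divided the lists fully. Promoters from RefSeq (250 bases before to 50 bases after the start, build GRCm38.p6) were matched for 40 of the 48 genes, 21 of S phase and 19 of mitosis, and not for Ccne2, Mcm4, Gins1, Gins2, Ccna2, Aurkb, Kif20a and Tpx2. A CHR was taken as TTTGAA or TTCGAA, and an E2F site as TTTCCCGC, TTTCGCGC, TTTGCCGC or TTTGGCGC, each on either strand. A CHR was found in 15 of 19 mitotic promoters (78.9%) and in 4 of 21 S phase promoters (19%), where 21.7% of the promoters of 27025 genes hold it. The E2F letters were found in 8 of 21 S phase promoters (38.1%) and in 1 of 19 mitotic promoters (5.26%, Cdk1), against 2.6% of all genes. The letters CCAAT or ATTGG were in 17 of 19 mitotic promoters (89.5%) and 14 of 21 S phase promoters (66.7%), against 41.1% of all genes. A match of letters is a description of the sequence and not a bound site. The strain difference described below was not tested between genes with and without the letters. Its median was -0.62 on the log2 scale in the 19 genes with a CHR and -0.63 in the 21 without. For the E2F letters it was -0.55 for 9 genes with them and -0.65 for 31 without.

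The windows below run 5′ to 3′ from 120 bases before to 50 bases after the start, each in the direction of transcription, so the last 50 bases belong to the first exon. The capitals mark CHR or E2F letters. Rrm2, Orc6 and Cdt1 are shown because they passed the test of the strain difference, Orc1, Mcm3 and Mcm6 as S phase promoters with E2F letters near the start, and Cdk1, Cdc20, Kif11 and Cenpf as mitotic promoters with a CHR.
Rrm2 (chr12:24708134-24708303, plus strand): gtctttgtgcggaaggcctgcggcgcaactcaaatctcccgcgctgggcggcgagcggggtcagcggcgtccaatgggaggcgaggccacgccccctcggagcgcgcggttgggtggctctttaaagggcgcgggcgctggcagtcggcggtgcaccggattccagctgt
Orc6 (chr8:85299512-85299681, plus strand): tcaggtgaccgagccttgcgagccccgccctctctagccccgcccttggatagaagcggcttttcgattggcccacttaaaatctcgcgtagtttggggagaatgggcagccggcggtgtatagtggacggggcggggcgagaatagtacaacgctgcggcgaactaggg
Cdt1 (chr8:122567895-122568064, plus strand): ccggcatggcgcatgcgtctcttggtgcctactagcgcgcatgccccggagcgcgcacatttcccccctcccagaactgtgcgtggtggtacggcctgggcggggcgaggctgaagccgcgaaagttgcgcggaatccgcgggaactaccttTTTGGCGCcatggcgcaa
Orc1 (chr4:108579334-108579503, plus strand): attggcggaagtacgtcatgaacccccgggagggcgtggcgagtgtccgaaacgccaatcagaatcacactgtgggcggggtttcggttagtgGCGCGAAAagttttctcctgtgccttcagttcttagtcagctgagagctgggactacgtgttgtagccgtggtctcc
Mcm3 (chr1:20820263-20820432, minus strand): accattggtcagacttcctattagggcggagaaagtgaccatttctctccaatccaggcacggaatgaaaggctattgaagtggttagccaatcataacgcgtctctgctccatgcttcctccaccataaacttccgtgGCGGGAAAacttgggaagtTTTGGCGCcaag
Mcm6 (chr1:128359656-128359825, minus strand): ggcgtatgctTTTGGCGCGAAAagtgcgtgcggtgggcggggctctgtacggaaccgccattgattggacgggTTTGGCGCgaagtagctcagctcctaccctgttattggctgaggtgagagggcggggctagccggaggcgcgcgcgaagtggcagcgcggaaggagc
Cdk1 (chr10:69352863-69353032, minus strand): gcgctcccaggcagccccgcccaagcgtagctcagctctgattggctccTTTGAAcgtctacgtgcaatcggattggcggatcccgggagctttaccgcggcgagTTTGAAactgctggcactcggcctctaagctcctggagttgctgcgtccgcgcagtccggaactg
Cdc20 (chr4:118437294-118437463, minus strand): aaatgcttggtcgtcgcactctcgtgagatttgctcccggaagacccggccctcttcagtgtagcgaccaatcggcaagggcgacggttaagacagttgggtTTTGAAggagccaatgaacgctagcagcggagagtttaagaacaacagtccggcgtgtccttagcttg
Kif11 (chr19:37376262-37376431, plus strand): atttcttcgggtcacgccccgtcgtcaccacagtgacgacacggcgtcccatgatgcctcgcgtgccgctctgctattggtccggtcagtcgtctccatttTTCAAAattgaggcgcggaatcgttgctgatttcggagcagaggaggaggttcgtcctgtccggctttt
Cenpf (chr1:189688037-189688206, minus strand): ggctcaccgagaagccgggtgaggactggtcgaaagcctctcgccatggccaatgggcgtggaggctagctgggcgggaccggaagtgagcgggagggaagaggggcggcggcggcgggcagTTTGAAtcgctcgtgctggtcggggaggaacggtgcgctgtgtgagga
Mcm6 holds 3 matches in its window, a pair of them overlapping on opposite strands, and Cdt1 and Mcm3 hold theirs after the start. Cdk1 holds a pair of CHR matches, while those of Cdc20 and Kif11 lie just before the start and that of Cenpf just after it. The windows of Rrm2 and Orc6 hold no match.

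Replication and mitosis genes were lower in NOD.B10 spleens than in BL/10 spleens by point estimate for all 48 genes, but few passed the test. By edgeR's quasi-likelihood test with Benjamini-Hochberg adjustment over 15330 genes, 3 of 48 had an adjusted p under 0.05, all lower in NOD.B10 and all of S phase: Rrm2, Orc6 and Cdt1. In this comparison 8.22% of all tested genes were called lower and 9.11% higher, so that 3 of 48 is no more than the background share. The median log2 fold change (NOD.B10 over BL/10) was -0.63 over the 48 genes, which is 64.8% of the BL/10 level, with a range from -1.15 to -0.27. Over all tested genes it was 0.0006. Of the 48 genes, 30 had an unadjusted p under 0.05 (62.5%, against 34.2% of all tested genes). DESeq2 called 20 of 48 lower and none higher, 10 in each list, where it called 9.06% of all genes lower. In whole spleen RNA, fewer dividing cells and less of these transcripts per dividing cell cannot be told apart.

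The spread within a strain was large for these genes. Levels are given as CPM, the read count of a gene relative to its library's total after TMM scaling. The median SD of log2 CPM within a strain was 0.395 over the 48 genes, against 0.179 over all tested genes, and the median standard error of the fold change was 0.25 against 0.15. NOD.B10 replicate 2 was the highest NOD.B10 library for 48 of 48 genes. BL/10 replicate 1 was the lowest BL/10 library for 45 of 48 genes (all but Orc6, Pola1 and Rfc4) and replicate 2 the highest for 47 of 48 (all but Fen1). All 3 NOD.B10 libraries lay below all 3 BL/10 libraries for 6 of 48 genes (Ccne2, Orc6, Cdt1, Gins2, Rrm1 and Rrm2), where 17.5% of all tested genes did so.

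**Figure D1:**
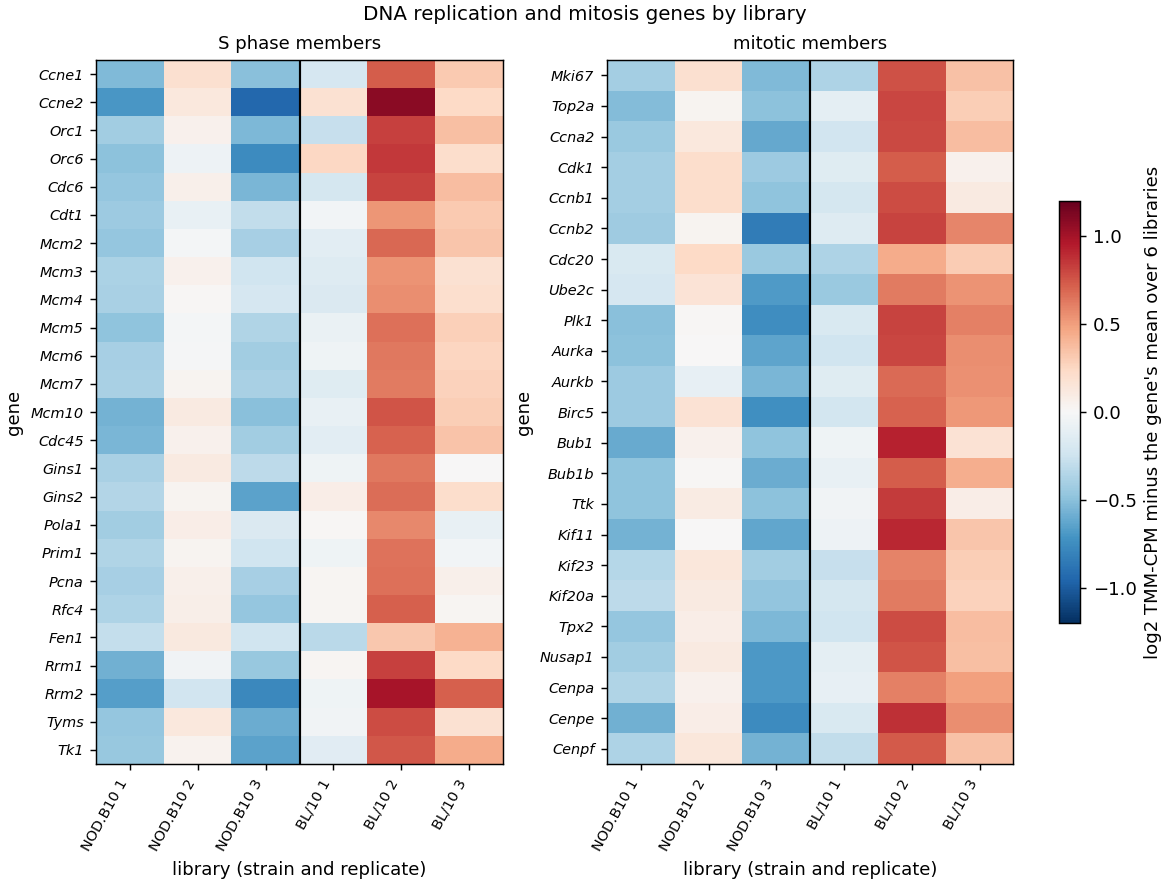
Normalised expression of the 25 S phase genes (left) and the 23 mitotic genes (right) in each library, as log2 CPM after TMM scaling minus the mean of the gene over 6 libraries (color scale). On average, NOD.B10 replicate 2 (0.04 for S phase and 0.09 for mitotic genes) and BL/10 replicate 1 (-0.07 and -0.19) lie nearest the mean. BL/10 replicate 2 is the highest library for 47 of 48 genes, and NOD.B10 replicates 1 and 3 are low on average.

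Among the G1/S cyclins, neither gene passed the test. These are Ccne1 and Ccne2, which activate Cdk2 at the entry into S phase. Ccne2 had 54.7, 96.9 and 46.1 CPM in NOD.B10 replicates 1, 2 and 3 and 100.5, 188 and 104 CPM in BL/10 replicates 1, 2 and 3. The 3 NOD.B10 values lay below the 3 BL/10 values, and the nearest were NOD.B10 replicate 2 and BL/10 replicate 1. Its log2 fold change was -0.99 (SE 0.33, adjusted p = 0.0792), and Ints8 overlaps 17.4% of its exon bases. Ccne1 had 53.7, 88.2 and 54.7 CPM in NOD.B10 replicates 1, 2 and 3 and 67.3, 128 and 95.8 CPM in BL/10 replicates 1, 2 and 3, and here the strains overlapped, with a log2 fold change of -0.56 (SE 0.27, adjusted p = 0.179).

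Origin licensing held 2 of the 3 genes past the threshold. Orc6 (ENSMUSG00000031697, GRCm38 chr8:85299632-85308278), the smallest subunit of the origin recognition complex, had 53.4, 72.3 and 44.5 CPM in NOD.B10 replicates 1, 2 and 3 and 89.4, 136 and 86.9 CPM in BL/10 replicates 1, 2 and 3. All NOD.B10 libraries were below all BL/10 libraries, of which replicates 1 and 3 were close to each other and replicate 2 was well above them. The means were 56.7 ± 14.2 CPM against 104 ± 27.6 CPM (SD, n = 3 each), and edgeR gave a log2 fold change of -0.87 (SE 0.23, adjusted p = 0.0360), or 54.5% of the BL/10 level. Cdt1 (ENSMUSG00000006585, GRCm38 chr8:122568015-122573128), which brings the Mcm helicase to the origin, had 49.1, 62.6 and 54.2 CPM in NOD.B10 replicates 1, 2 and 3 and 65.0, 96.0 and 82.5 CPM in BL/10 replicates 1, 2 and 3. The highest NOD.B10 value and the lowest BL/10 value nearly met, but no value crossed. The means were 55.3 ± 6.81 CPM against 81.1 ± 15.5 CPM (SD, n = 3 each), with a log2 fold change of -0.55 (SE 0.16, adjusted p = 0.0472). This was 68.2% of the BL/10 level, with the smallest standard error among the 48 genes, and with the acinar markers left out of the table the log2 fold change was -0.56 and the adjusted p = 0.0514, just above 0.05.

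Cdc6, the ATPase that works with Cdt1, was not called. It had 58.7, 84.6 and 55.4 CPM in NOD.B10 replicates 1, 2 and 3 and 70.0, 142 and 105 CPM in BL/10 replicates 1, 2 and 3, so that NOD.B10 replicate 2 exceeded BL/10 replicate 1, and its log2 fold change was -0.67 (SE 0.26, adjusted p = 0.117). Orc1, the largest subunit of the origin complex, behaved alike at 20.2, 27.9 and 18.5 CPM against 22.3, 47.4 and 34.6 CPM (NOD.B10 against BL/10, replicates 1, 2 and 3), with a log2 fold change of -0.64 (SE 0.27, adjusted p = 0.142). NOD.B10 replicate 2 was above BL/10 replicate 1 for this gene too, which separates both genes from Orc6 and Cdt1.

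The Mcm2 to Mcm7 subunits, which form the helicase that opens DNA ahead of the fork, moved as a block from library to library, and none of the 6 was called. In NOD.B10 against BL/10 replicates 1, 2 and 3, Mcm2 had 157, 213 and 164 CPM against 198, 348 and 272 CPM. Mcm3 had 144, 193 and 159 CPM against 168, 273 and 212 CPM. Mcm4 had 117, 155 and 133 CPM against 136, 225 and 176 CPM. In each of these, NOD.B10 replicate 2 lay above BL/10 replicate 1 and below the other BL/10 libraries. Mcm5 had 170.0, 233 and 185 CPM against 224, 374 and 288 CPM. Mcm6 had 195, 255 and 193 CPM against 248, 399 and 307 CPM. Mcm7 had 139, 187 and 139 CPM against 165, 281 and 221 CPM. The same overlap between NOD.B10 replicate 2 and BL/10 replicate 1 was seen, and it was the sole overlap between the strains for each of the 6 subunits. Their log2 fold changes lay between -0.62 (Mcm2) and -0.40 (Mcm3), with standard errors between 0.19 and 0.21 and adjusted p between 0.0817 (Mcm6) and 0.181 (Mcm3).

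Factors that activate the helicase and copy DNA were likewise not called. Mcm10, Cdc45, Gins1 and Gins2, which turn the loaded helicase into an active fork, had log2 fold changes between -0.65 (Mcm10) and -0.41 (Gins1) and adjusted p between 0.0742 (Gins2) and 0.214 (Gins1). The DNA polymerase alpha and primase genes Pola1 and Prim1 had log2 fold changes of -0.35 and -0.41 with adjusted p = 0.245 and 0.197. Rfc4, a subunit of the loader of the sliding clamp, had a log2 fold change of -0.52 (SE 0.22, adjusted p = 0.140). Pcna, the clamp itself, had 228, 315 and 229 CPM in NOD.B10 replicates 1, 2 and 3 and 306, 475 and 315 CPM in BL/10 replicates 1, 2 and 3. NOD.B10 replicate 2 and BL/10 replicates 1 and 3 were nearly equal, and the log2 fold change was -0.51 (SE 0.21, adjusted p = 0.131). Fen1, the flap nuclease of Okazaki fragments, had the smallest S phase difference, -0.30 (SE 0.22, adjusted p = 0.372), and the fewest reads. It shares 84.2% of its exon bases with Gm10143 and Tmem258, and reads over shared bases were not counted.

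**Figure D2:**
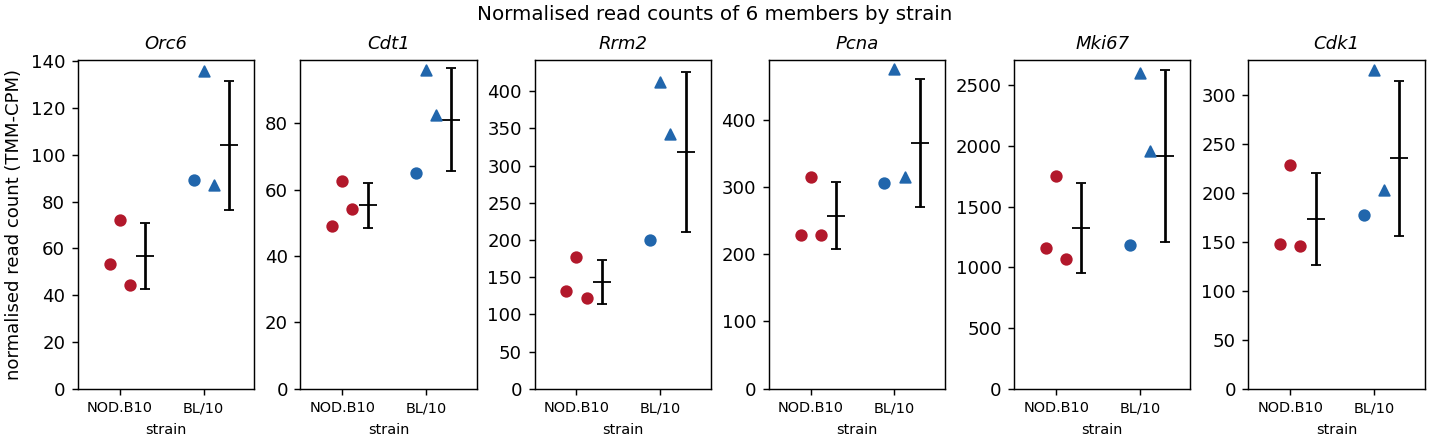
Normalised read count (CPM after TMM scaling, linear axes from 0) of 6 genes in NOD.B10 (red) and BL/10 (blue) libraries, with the mean and SD of 3 libraries beside the points and triangles for the libraries labelled 36 weeks. Rrm2, Orc6 and Cdt1 show no overlap between strains, while for Pcna, Mki67 and Cdk1 the highest NOD.B10 library lies above the lowest BL/10 library.

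Nucleotide synthesis genes held the largest difference. Rrm2 (ENSMUSG00000020649, GRCm38 chr12:24708241-24714146), the subunit of ribonucleotide reductase that limits the supply of deoxynucleotides in S phase, had 132, 177 and 122 CPM in NOD.B10 replicates 1, 2 and 3 and 200.2, 412 and 342 CPM in BL/10 replicates 1, 2 and 3. BL/10 replicates 2 and 3 were far above every NOD.B10 library, and BL/10 replicate 1 was just above the highest of them. The means were 144 ± 29.6 CPM against 318 ± 108 CPM (SD, n = 3 each), a log2 fold change of -1.15 (SE 0.27, adjusted p = 0.0250), or 45.2% of the BL/10 level. Its partner Rrm1, the large subunit, had 225, 326 and 244 CPM in NOD.B10 replicates 1, 2 and 3 and 340.1, 592 and 395 CPM in BL/10 replicates 1, 2 and 3. The strains did not overlap, but the gap between NOD.B10 replicate 2 and BL/10 replicate 1 was small, and the log2 fold change of -0.74 (SE 0.23, adjusted p = 0.0640) missed the threshold. The thymidylate genes Tyms (thymidylate synthase) and Tk1 (thymidine kinase) overlapped between strains. Tyms had 60.0, 90.5 and 54.9 CPM in NOD.B10 replicates 1, 2 and 3 and 80.5, 142 and 94.0 CPM in BL/10 replicates 1, 2 and 3, and Tk1 had 63.1, 89.4 and 55.5 CPM against 79.0, 145 and 118 CPM in the same order. In both, NOD.B10 replicate 2 was above BL/10 replicate 1, and the log2 fold changes were -0.63 (SE 0.25, adjusted p = 0.127) and -0.72 (SE 0.25, adjusted p = 0.0851).

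None of the 23 mitotic genes passed the threshold in edgeR, where 8.22% of all tested genes were called lower. An unadjusted p under 0.05 was seen for 12 of the 23, against 34.2% of all tested genes. DESeq2 called 10 of the 23 lower, against 9.06% of all genes. The lowest adjusted p was that of Aurkb, the kinase of the chromosomal passenger complex, at 0.0518. Aurkb had 38.4, 48.7 and 35.6 CPM in NOD.B10 replicates 1, 2 and 3 and 47.2, 83.6 and 76.0 CPM in BL/10 replicates 1, 2 and 3. Its NOD.B10 replicate 2 was just above BL/10 replicate 1, and the log2 fold change was -0.75 (SE 0.22). Birc5 (survivin), of the same complex, had 94.3, 144 and 76.8 CPM against 109, 208 and 183 CPM in the same order of libraries. NOD.B10 replicate 2 lay well above BL/10 replicate 1, and the log2 fold change was -0.67 (SE 0.29, adjusted p = 0.147).

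Mki67 and Top2a, the usual markers of dividing cells, were not called, and their strains overlapped. Mki67, the antigen Ki-67 that coats mitotic chromosomes, had 1156, 1749 and 1066 CPM in NOD.B10 replicates 1, 2 and 3 and 1185, 2599.5 and 1962 CPM in BL/10 replicates 1, 2 and 3. BL/10 replicate 1 was about level with NOD.B10 replicates 1 and 3 and below NOD.B10 replicate 2. Its means were 1324 ± 371 CPM against 1916 ± 708 CPM (SD, n = 3 each), and the log2 fold change was -0.53 (SE 0.30, adjusted p = 0.253). Top2a, the topoisomerase that untangles sister DNA, had 349, 513 and 357 CPM against 463, 877 and 615 CPM (NOD.B10 against BL/10). The overlap was limited to NOD.B10 replicate 2 and BL/10 replicate 1, with a log2 fold change of -0.68 (SE 0.25, adjusted p = 0.101).

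Of the cyclins and kinases that drive entry into mitosis, none was called. Ccna2 (cyclin A2) had 187, 277 and 166 CPM against 217, 441 and 328 CPM, and Cdk1, the mitotic cyclin-dependent kinase, had 148, 228 and 145 CPM against 177, 326 and 203 CPM (NOD.B10 against BL/10, replicates 1, 2 and 3). Ccnb1 and Ccnb2, are the B-type cyclins that activate Cdk1. Ccnb1 had 50.4, 77.5 and 47.7 CPM against 57.9, 115 and 71.9 CPM, and Ccnb2 had 79.6, 109 and 59.9 CPM against 96.3, 188 and 161 CPM. Plk1, the polo-like kinase, had 31.6, 45.0 and 26.6 CPM against 39.4, 78.1 and 67.8 CPM. For each of these 5 genes NOD.B10 replicate 2 was higher than BL/10 replicate 1, and for Cdk1 and Ccnb1 it was higher than BL/10 replicate 3 as well. The log2 fold changes were -0.84 (SE 0.28, adjusted p = 0.0741) for Plk1 and -0.84 (SE 0.28, adjusted p = 0.0806) for Ccnb2. They were -0.65 for Ccna2, -0.48 for Ccnb1 and -0.44 for Cdk1, with adjusted p between 0.150 (Ccna2) and 0.278 (Cdk1). Ccnb1 shares 23.4% of its 50-base stretches with other genes, mostly a pseudogene, so its level is less certain.

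Neither gene of the machinery that ends mitosis was called. Cdc20, the activator of the anaphase-promoting complex, had 67.6, 90.5 and 56.6 CPM in NOD.B10 replicates 1, 2 and 3 and 59.6, 105 and 95.1 CPM in BL/10 replicates 1, 2 and 3. BL/10 replicate 1 was below NOD.B10 replicates 1 and 2, and the log2 fold change of -0.27 (SE 0.24, adjusted p = 0.456) was the smallest of all 48. Ube2c, the ubiquitin-conjugating enzyme of that complex, had 107, 138 and 76.5 CPM against 90.2, 189.8 and 179 CPM and the same overlap, with a log2 fold change of -0.51 (SE 0.30, adjusted p = 0.270). Tnnc2 overlaps 22.8% of the exon bases of Ube2c.

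Centromere and spindle genes included the largest mitotic difference. Cenpe, the kinetochore motor, had 74.2, 117 and 65.9 CPM in NOD.B10 replicates 1, 2 and 3 and 97.9, 204 and 163 CPM in BL/10 replicates 1, 2 and 3, and BL/10 replicates 2 and 3 stood well above the other 4 libraries. Its log2 fold change was -0.86 (SE 0.30, adjusted p = 0.0874), the largest among the mitotic genes. Cenpa, the histone H3 variant that marks the centromere, had 106, 142 and 84.8 CPM against 128, 209 and 193 CPM, with NOD.B10 replicate 2 above BL/10 replicate 1 and a log2 fold change of -0.67 (SE 0.23, adjusted p = 0.0859). Other spindle and checkpoint genes, namely Aurka, Bub1, Bub1b, Ttk, Kif11, Kif23, Kif20a, Tpx2, Nusap1 and Cenpf, had log2 fold changes between -0.81 (Kif11, the motor that separates the spindle poles) and -0.43 (Kif23, which acts in cytokinesis). Their adjusted p lay between 0.0680 (Bub1b, a checkpoint kinase) and 0.228 (Kif23), and in all 10 NOD.B10 replicate 2 was above BL/10 replicate 1.

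**Figure D3:**
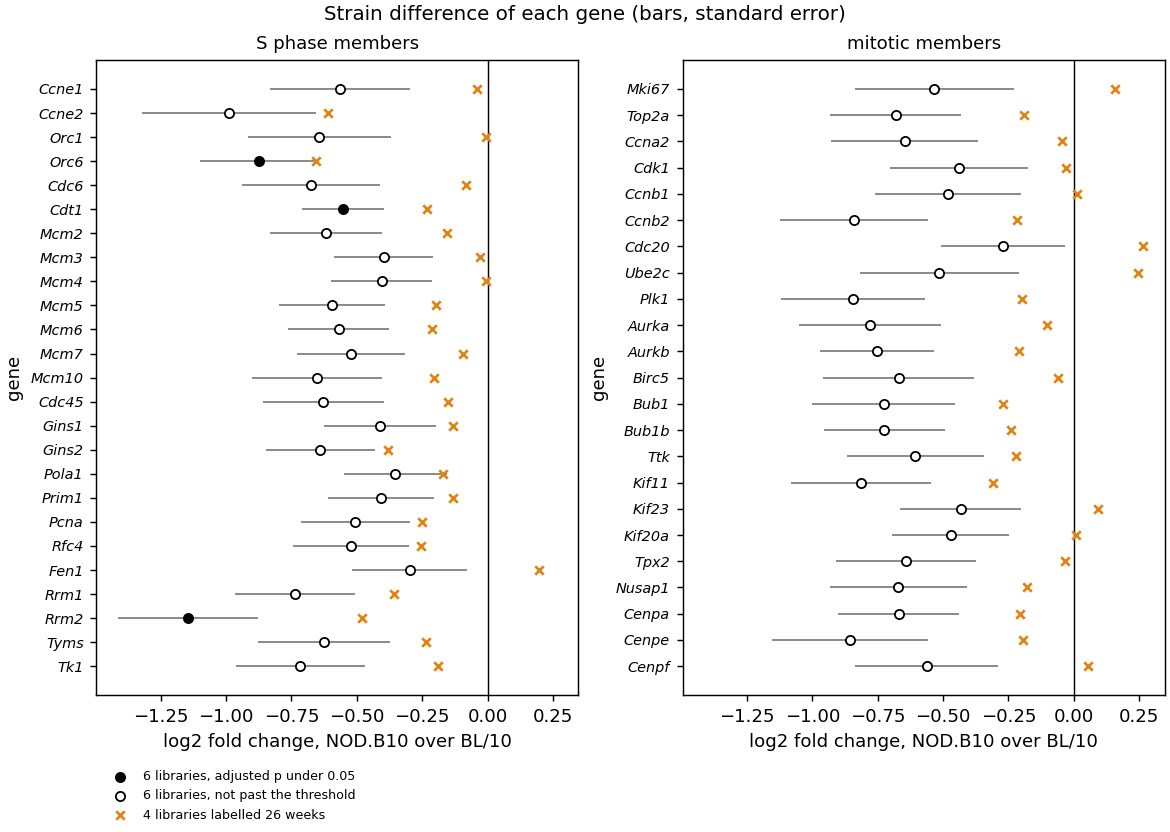
Log2 fold change (NOD.B10 over BL/10) of each S phase gene (left) and mitotic gene (right) with its standard error, filled where the adjusted p was under 0.05, and, as crosses, the value from the 4 libraries labelled 26 weeks. All 48 values of the 6 libraries lie below 0, 3 S phase genes are filled, and most crosses lie closer to 0, with 8 above it.

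With all 6 libraries, the S phase genes had a median log2 fold change of -0.59 and the mitotic genes a median of -0.67. Among the 26-week libraries the order was the opposite, with -0.19 for S phase and -0.10 for mitotic genes. The mean log2 CPM of the S phase list was 5.97, 6.46 and 5.97 in NOD.B10 replicates 1, 2 and 3, and 6.36, 7.13 and 6.67 in BL/10. That of the mitotic list was 6.46, 6.98 and 6.30, and 6.69, 7.63 and 7.26 in the same order. Both lists thus ranked BL/10 replicate 2 highest, BL/10 replicate 3 next, and NOD.B10 replicate 3 lowest. The difference between the lists (S phase minus mitotic, which sets each library against itself) was -0.49, -0.52 and -0.33 in the NOD.B10 libraries, and -0.34, -0.50 and -0.59 in those of BL/10. The strain means were -0.447 ± 0.10 and -0.476 ± 0.13 (SD, n = 3 each), so they lay 0.03 apart, well within the spread between mice, and the balance of the lists overlapped fully between strains. The 3 called genes and all 6 genes without overlap were among the 25 of S phase. Of all tested genes 8.22% were called lower and 17.5% lay lower without overlap, and DESeq2 called 10 genes in each list. No test compared the lists, whose median standard errors were 0.22 (S phase) and 0.27 (mitotic).

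As a share of the transcriptome, the 48 genes took 0.555%, 0.788% and 0.542% of the counts in NOD.B10 replicates 1, 2 and 3, and 0.669%, 1.19% and 0.914% in BL/10. BL/10 replicates 2 and 3 were above every NOD.B10 library, and BL/10 replicate 1 lay within the NOD.B10 range. Levels between genes are compared per length, as length-scaled transcript abundance (TPM). In both strains Mki67 was the most abundant, at a mean of 310.3 TPM in NOD.B10 and 428 TPM in BL/10, and Pcna came next at 254 and 343 TPM. The next place differed, with Rrm1 at 157 TPM in NOD.B10 and Rrm2 at 258 TPM, close above Rrm1 at 249, in BL/10. In NOD.B10, Rrm2 had 123 TPM and lay below Mcm5 and Ccnb2. The least abundant in both strains were, over the 6 libraries, Fen1 at 8.02 TPM, Ttk at 13.4 and Gins2 at 13.4. As for Fen1, the level of Gins2 is a low estimate, since it shares 67.3% of its exon bases with Gse1. Kif20a shares 33.2% of its exon bases with Cdc23, and Mcm7 shares 12.6% with Ap4m1, Cops6, Mir25 and Mir93. Pcna and Mcm7 share 19.1% and 23.3% of their 50-base stretches with other genes, most often Pcna-ps2 and Gm5487.

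The number of genes called depended on the BL/10 libraries. With all 6 libraries but without the acinar markers, 2 of 48 genes were called lower, as were 1248 of 15318 tested genes. Without BL/10 replicate 1, which held the most pancreas RNA, 35 of 48 genes were lower in NOD.B10 past the threshold. They were 17 of S phase and 18 of mitosis, and 14.0% of all tested genes were called lower. That fit set NOD.B10 libraries labelled 26 weeks against BL/10 libraries labelled 36 weeks. The median log2 fold change was then -0.80, with a range from -1.40 (Rrm2) to -0.44 (Pola1). In the fit without BL/10 replicate 1, Rrm2 had an adjusted p = 0.00242 and Aurkb a log2 fold change of -0.97 (adjusted p = 0.00466). Mki67 still missed the threshold at -0.79 (adjusted p = 0.0536), as did Pcna, Cdk1, Ccnb1, Cdc20 and 8 other genes. Without BL/10 replicate 2, the medians went the other way, to -0.37 for S phase and -0.38 for mitotic genes, from -0.59 and -0.67 with all libraries. Leaving out BL/10 replicate 2 or 3, or NOD.B10 replicate 1 or 3, left none of the 48 called, where 4.91%, 5.32%, 3.77% and 4.06% of all tested genes were called lower. Leaving out NOD.B10 replicate 2 left 6 of 48, where 6.0% of all tested genes were called lower. Over the 16 alternatives that kept the threshold of 0.05, Rrm2 and Orc6 were each called in 11 and Cdt1 in 9. Their log2 fold changes lay between -1.40 and -0.48 for Rrm2, -1.09 and -0.64 for Orc6, and -0.70 and -0.23 for Cdt1.

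BL/10 replicate 1 was also the only BL/10 library labelled 26 weeks. Among the 4 libraries with that label, 3 NOD.B10 and BL/10 replicate 1, none of the 48 was called, while 3.36% of all tested genes were called lower. This fit assumes that the lone BL/10 library varies as the NOD.B10 libraries do. The log2 fold change was below 0 for 40 genes and above 0 for 8, with a median of -0.17 (-0.19 for S phase and -0.10 for mitosis), and 1 gene, Orc6, had an unadjusted p under 0.05. The genes above 0 were Fen1 (0.20), Mki67 (0.16), Ccnb1 (0.01), Cdc20 (0.26), Ube2c (0.25), Kif23 (0.09), Kif20a (0.01) and Cenpf (0.05). The values of the genes called with 6 libraries were smaller in size here, -0.66 for Orc6 (from -0.87), -0.48 for Rrm2 (from -1.15) and -0.23 for Cdt1 (from -0.55), and none passed the threshold. Strain and labelled age therefore cannot be told apart for the lower level of these genes, as no NOD.B10 library is labelled 36 weeks.

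Other genes of the same processes, from lists made beside the 48, were also mostly lower in NOD.B10 by point estimate, 43 of 45 in replication and 56 of 57 in mitosis. Of the 45 other replication genes, 7 were lower past the threshold and none higher, with a median log2 fold change of -0.42. In the same comparison 8.22% of all tested genes were lower and 9.11% higher. The largest differences among the 7 were those of Recql4, a helicase of replication initiation (log2 fold change -0.93, SE 0.22, adjusted p = 0.0255), Exo1, an exonuclease of mismatch repair (log2 fold change -0.86, SE 0.21, adjusted p = 0.0289), Ticrr, which helps to load Cdc45 (log2 fold change -0.85, SE 0.23, adjusted p = 0.0404), and Gmnn (geminin), the inhibitor of Cdt1 (log2 fold change -0.79, SE 0.21, adjusted p = 0.0383). None of these 4 was called among the 26-week libraries. The smallest adjusted p of the list was that of Pold1, the catalytic subunit of DNA polymerase delta, which had 47.5, 49.5 and 57.2 CPM in NOD.B10 replicates 1, 2 and 3 and 79.0, 81.5 and 79.6 CPM in BL/10 replicates 1, 2 and 3. All NOD.B10 libraries were below all BL/10 libraries with little spread, and BL/10 replicate 1 was level with the other BL/10 libraries. Its log2 fold change was -0.64 (SE 0.09, adjusted p = 0.00381), and it was -0.62 (adjusted p = 0.0451) among the 26-week libraries. Pold1 was the only gene of the list called in all 16 alternatives, and was named after its values were seen. The other called genes were Pold2 and Rfc5, subunits of the same polymerase and of the clamp loader. Of the 57 other mitosis genes, 12 were lower past the threshold and none higher, with a median of -0.70. Hjurp, the chaperone that loads Cenpa at centromeres, had 81.0, 96.1 and 72.8 CPM in NOD.B10 replicates 1, 2 and 3 and 171, 246 and 230.1 CPM in BL/10 replicates 1, 2 and 3. The strains were widely separated, and every BL/10 library was far above every NOD.B10 library, including BL/10 replicate 1. Its log2 fold change was -1.37 (SE 0.17, adjusted p = 0.00174), and it was -1.04 (adjusted p = 0.0139) among the 26-week libraries. Cdca3, which triggers entry into mitosis by removing Wee1, had 53.6, 82.5 and 46.1 CPM against 128, 263 and 202 CPM (NOD.B10 against BL/10) and was likewise separated, with a log2 fold change of -1.70 (SE 0.30, adjusted p = 0.00865). Cit (citron kinase of cytokinesis) and Pbk (a mitotic kinase) had -1.13 (SE 0.31, adjusted p = 0.0425) and -1.10 (SE 0.26, adjusted p = 0.0264). Among the 26-week libraries these 3 genes were not called, with -1.08 (adjusted p = 0.0844) for Cdca3, -0.37 (adjusted p = 0.516) for Cit and -0.57 (adjusted p = 0.273) for Pbk.

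Of 20 transcription regulators, 2 were lower and 1 was higher past the threshold (8.22% and 9.11% of all tested genes were), shares near the background, with a median log2 fold change of -0.41. E2f8, an E2F repressor, had -0.95 (SE 0.27, adjusted p = 0.0485), and Tfdp1, the dimer partner of E2F factors, had -0.58 (SE 0.16, adjusted p = 0.0415). Rbl2 (p130), the pocket protein that keeps cell cycle genes silent in resting cells, had 114, 111 and 118 CPM in NOD.B10 replicates 1, 2 and 3 and 90.9, 86.0 and 87.0 CPM in BL/10 replicates 1, 2 and 3. All NOD.B10 libraries were above all BL/10 libraries, and the spread within each strain was small. Its log2 fold change was 0.37 (SE 0.08, adjusted p = 0.0154), opposite in sign to those of the 48 genes. Among the 26-week libraries none of the 3 was called, with -0.34 for E2f8, -0.25 for Tfdp1 and 0.33 for Rbl2. Among the 16 G1 cyclins, kinases and inhibitors, 2 were lower past the threshold and none higher, with a median of -0.32. Cdkn1c (p57), an inhibitor of cyclin-dependent kinases, had 2.51, 2.33 and 2.36 CPM in NOD.B10 replicates 1, 2 and 3 and 12.1, 9.25 and 8.86 CPM in BL/10 replicates 1, 2 and 3. BL/10 replicate 1 was here the highest library, unlike its place for the 48 genes, and the log2 fold change was -2.07 (SE 0.18, adjusted p = 0.000384). Cdk6, the kinase of D-type cyclins, had 20.1, 23.5 and 15.8 CPM against 44.9, 56.3 and 52.5 CPM (NOD.B10 against BL/10) without overlap and a log2 fold change of -1.37 (SE 0.16, adjusted p = 0.00138). Both were also called among the 26-week libraries, at -2.33 and -1.18.

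**Figure D4:**
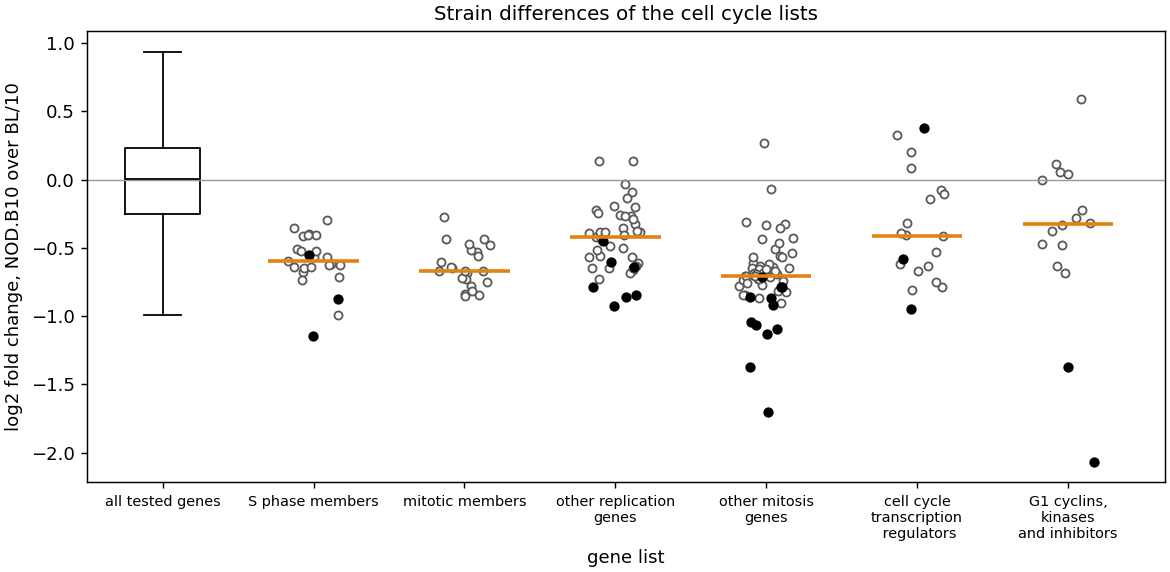
Log2 fold changes (NOD.B10 over BL/10) of the genes of 6 cell cycle lists, filled where the adjusted p was under 0.05, with the median of each list as a bar and all 15330 tested genes as a box (quartiles, with whiskers at the 5th and 95th percentiles). The medians of the lists lie between -0.32 and -0.70, that of all tested genes at 0, and Cdkn1c and Cdca3 have the lowest values.

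Markers of erythroid cells, the red cell lineage, followed the 48 genes from library to library. They had a median log2 fold change of -0.72, with 18 of 20 below 0 and 2 called lower (Hba-a2 and Tspo2), where 8.22% of all tested genes were. Among the 26-week libraries the median turned to 0.18. Their mean log2 CPM ranked the 6 libraries in the same order as the 48 genes did. The lowest log2 fold change of a marker was -8.93, and so low a value weighs on a mean of 20 genes. NOD.B10 replicate 2 was the highest NOD.B10 library and BL/10 replicate 1 the lowest BL/10 library for 20 of 20 markers. Summed, the markers gave 43746, 52022 and 29077 CPM in NOD.B10 and 32039, 64004 and 72109 CPM in BL/10. Hbb-bs was the most abundant, and no marker was at 0. By these sums, which the globins dominate, BL/10 replicate 1 lay between NOD.B10 replicates 1 and 3. Hba-a2 is a near-identical copy of Hba-a1, so the split of reads between the copies is uncertain. The part of erythroid cells in the level of the 48 genes was not tested.

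Markers of granulocytes were lower as well, in a comparison where 8.22% of all tested genes were called lower and 9.11% higher. The 6 granulocyte precursor markers were all called lower, with a median of -1.83 (-0.81 among the 26-week libraries) and sums of 106, 153 and 166 CPM in NOD.B10 against 269, 831 and 552 CPM in BL/10 (top gene Mpo). The 8 mature neutrophil markers were all called lower, with a median of -2.14 (-1.39 among the 26-week libraries) and sums of 2203, 2458 and 2126 CPM against 6177, 12789 and 11332 CPM (top gene S100a9). Megakaryocyte markers had a median of -0.55 (-0.87 among the 26-week libraries), with 2 of 8 called lower with all 6 libraries. Their sums were 716, 857 and 570.2 CPM against 1347, 735 and 1058 CPM, with Ppbp as the top gene. None of the 9 tested germinal center B cell markers was called by edgeR (4 had an unadjusted p under 0.05 and DESeq2 called 2 higher), and their median was 0.40, but -0.04 among the 26-week libraries. Their sums were 135, 129 and 125 CPM in NOD.B10 and 139, 88.2 and 95.2 CPM in BL/10 (top gene Bcl6), so that BL/10 replicates 2 and 3, the libraries highest for the 48 genes, were the lowest. Mef2b was at 0 in 1 library and was not tested.

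Plasma cell markers were higher past the threshold in NOD.B10 for 6 of 10 genes and lower for none, and 9 of 10 were above 0. Of all tested genes 9.11% were called higher and 8.22% lower. The median of the plasma cell markers was 0.64 (0.36 among the 26-week libraries), with sums of 3366, 3877 and 3749 CPM against 2716, 2433 and 2133 CPM (top gene Jchain). T cell markers were higher past the threshold for 8 of 10 and lower for none, and 9 of 10 were above 0. Their median was 1.25 (0.98 among the 26-week libraries), with sums of 851, 796 and 1053 CPM against 510.3, 435 and 392 CPM (top gene Cd4). B cell markers had a median of 0.28, which turned to -0.14 among the 26-week libraries, and none called by edgeR (1 had an unadjusted p under 0.05 and DESeq2 called 1), with sums of 4643, 3978 and 5165 CPM against 5268, 2965 and 3218 CPM (top gene Ms4a1). The 12 tested pancreas acinar markers were all called lower in NOD.B10, with sums of 31.3, 29.5 and 22.5 CPM against 14148, 2111 and 112 CPM (top gene Cela1), and 3 of the 14 (Amy2a5, Clps and Try4) were at 0 in a library. The part of these cell types in the values of the 48 genes was not tested.

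**Figure D5:**
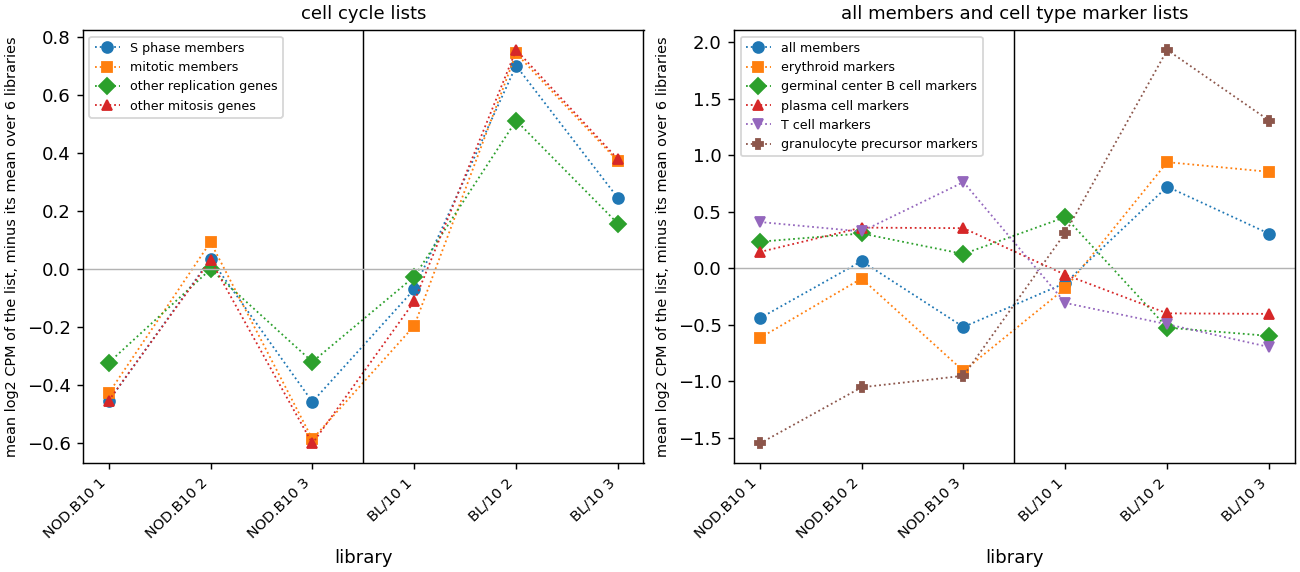
Mean log2 CPM of gene lists in each library, minus the mean of the list over 6 libraries, for 4 cell cycle lists (left) and for the 48 genes beside 5 marker lists (right), with dotted lines that link the points of a list and no order among replicates. The cell cycle lists rise and fall together, erythroid markers follow the 48 genes, and germinal center markers are lowest in BL/10 replicates 2 and 3, where the 48 genes are highest.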

How the data were processed

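Spleen RNA of 3 NOD.B10 and 3 BL/10 mice was sequenced in single-end 50-cycle reads. The authors deposited raw read counts per gene, made with featureCounts 1.5.1 from the exons of Ensembl release 84 (build GRCm38), unstranded, leaving out multimapping reads and those shared by overlapping genes. The aligner was HISAT2 2.0.5 according to the submitters' processing notes and Tophat2 according to the study. Strain was taken from the column names and descriptions, and BL/10 replicate 3 was matched by its library number and strain alone. Symbols came from GENCODE M21 (47224 of 47729 identifiers).

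Counts were analysed in R 4.3.3. The main test was edgeR 4.0.16's quasi-likelihood test after filterByExpr (15330 genes) and TMM, with strain as the sole term, BL/10 as the reference and an adjusted p under 0.05 as the threshold. DESeq2 1.42.0, the package used by the study, and limma-voom 3.58.1 were alternatives. Library sizes after TMM scaling, 14912390 to 18412737, put 3 counts, the floor of detection, at 0.163 to 0.201 CPM. Log2 CPM used a prior count of 2. TPM was computed from the counts and the gene lengths in the table. The fit was tested on simulated counts, and no value given here comes from that test. The 48 genes, the other lists and the rule for named genes (all of the 48 past the threshold, the 3 largest differences in S phase and in mitosis, a set of well-known genes whatever their values and, of each other cell cycle list, up to 4 called genes a direction by size) were chosen with earlier results of these data known.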

Additional observations from a re-analysis of the deposited data

How the results depend on the processing

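All 48 replication and mitosis genes stayed below 0 in log2 fold change under every alternative except the 26-week libraries alone, where 8 were above 0 (Fen1 0.20, Mki67 0.16, Ccnb1 0.013, Cdc20 0.26, Ube2c 0.25, Kif23 0.092, Kif20a 0.0070 and Cenpf 0.055). The number past the threshold was far less stable. In the order all 48, S phase, mitotic, other replication, other mitosis and regulators, against 3, 3, 0, 7, 12 and 3, DESeq2 called 20, 10, 10, 14, 32 and 7. With no filter beyond 1 count the numbers were 18, 10, 8, 12, 24 and 6, with limma-voom quality weights 19, 11, 8, 16, 27 and 8, and at an adjusted p under 0.1 they were 18, 10, 8, 20, 29 and 8. At 0.01 they were 0, 0, 0, 1, 2 and 0, and among the 26-week libraries 0, 0, 0, 1, 1 and 0. Leaving out 1 library gave 0 to 35, 0 to 17, 0 to 18, 1 to 26, 2 to 45 and 0 to 11. Of the G1 list, 2 genes were called, 4 by limma-voom, 5 at 0.1 and up to 9 with a library left out. Upper-quartile normalization called 1 mitotic gene. Over all genes, 2656 were called (17.3%), 3254 by DESeq2 (17.6%), 3104 with no filter beyond 1 count (11.5%), 3344 by limma-voom (21.8%), 1035 at 0.01, 4174 at 0.1, 1001 among the 26-week libraries and 1269 to 4107 with a library left out. The cause of these shifts was not tested.

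Without a library the medians lay between -0.77 and -0.37 for S phase and between -0.88 and -0.38 for mitotic genes. Among the 26-week libraries they were -0.19 for S phase and -0.10 for mitotic genes, and their difference turned from 0.08 to -0.087. Medians also changed sign there for erythroid (0.18), germinal center (-0.039) and B cell (-0.14) markers. Without the acinar markers, Cdt1 was no longer called, at an adjusted p = 0.0514 and a log2 fold change of -0.56. RLE size factors and leaving out hemoglobin and immunoglobulin genes left 3 genes called.

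Samples of the strains share only a replicate number. The deviations of same-numbered libraries correlated at 0.03, 0.17 and -0.08, and NOD.B10 replicates 1 and 3 each correlated better with a BL/10 library of another number. Correlations this weak do not decide whether the numbers pair the mice, and the main fit held no replicate term. With a replicate block, 36 of the 48 genes were called (21 of S phase and 15 mitotic), as were 28 other replication genes, 42 other mitosis genes, 9 regulators and 5 of the G1 list, where 2889 of 15330 genes (18.8%) were called in all, 1501 of them lower.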
